A study of Mus musculus with 6 samples.

Results

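The genes of de novo ceramide synthesis were followed through 6 RNA-seq libraries of biliary epithelial cells, which form the wall of the intrahepatic bile ducts. They are 10 of the 24404 genes listed, the serine palmitoyltransferase subunits Sptlc1 and Sptlc2, the reductase Kdsr, the ceramide synthases Cers2, Cers4, Cers5 and Cers6, the dihydroceramide desaturases Degs1 and Degs2, and the glucosylceramide synthase Ugcg. The genes were chosen by function and by their measured levels in these same Klf5 LKO and control libraries, so their differences between the groups are given as a description and without a test. All 10 passed the filter on low values, a mean normalised count of at least 10.

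All mice were adult C57BL/6 and were injured for 1 week with DDC (diethoxycarbonyl-dihydrocollidine), a compound that damages bile ducts. The 3 Klf5 LKO libraries came from Alfp-CreTg/+;Klf5flox/flox mice, in which Cre is driven by albumin and alpha-fetoprotein control elements that act in the liver epithelium, and the 3 control libraries from mice labelled Alfp-Cre+/+;Klf5flox/flox. Both groups thus carried the floxed Klf5 gene and received DDC, and groups without injury or with Cre alone were not analysed here. A difference between the groups due to Klf5 and one due to Cre cannot be told apart. Nothing in the labels ties the libraries to separate animals, and p-values therefore cover only the spread between these libraries, which may be technical. Values are normalised counts, which are reads per gene divided by a size factor for each library.

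Ceramide is the common core of the sphingolipids. Serine palmitoyltransferase joins serine and a fatty acyl-CoA, the product is reduced by Kdsr, and ceramide synthases add an acyl chain whose length depends on the synthase. Desaturases of the Degs family then put a double bond into dihydroceramide to make ceramide, and Degs2 can also add a hydroxyl group and make phytoceramide. Ceramide goes on to sphingomyelin, to glucosylceramide, or back to sphingosine. In liver, Cers2 is known for the very long chain ceramides that dominate there.

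Klf5, the zinc-finger transcription factor that was targeted, had normalised counts of 977, 1192 and 1183 in Klf5 LKO, against 2056, 2018 and 2316 in control, a log2 fold change of -0.93 (limma, adjusted p = 0.0103). Libraries held 11726934 to 24784167 reads. The ductal markers Epcam and Krt19 were abundant in every library, Epcam at 23402 to 28906 normalised counts. Krt19 lay at 6139 to 10189 in Klf5 LKO and at 11691 to 14735 in control, and the sum of 9 ductal markers at 399336 to 454796 and 457469 to 575821, both without overlap. Of 10 leukocyte markers, 9 had reads, with Clec4f at 0, and their summed counts were 9091 to 20772 in Klf5 LKO and 5713 to 27332 in control. Cd74 made up most of this sum in every library. Ptprc varied more, from 12.7 to 97.8 in Klf5 LKO and from 16.3 to 326 in control. Endothelial markers summed to 12.3 to 198 and 62.5 to 407, with overlap. Of 7 stellate cell and fibroblast markers, Col1a2, Col3a1, Lrat and Des were at 0 (4 genes). The sums were 30.9 to 80.5 in Klf5 LKO and 4.74 to 29.5 in control, without overlap. However, the sums of Klf5 LKO 3 (30.9) and control 3 (29.5) were nearly level. Dcn alone gave 61.6 of the 80.5 in Klf5 LKO 1. Hepatocyte markers summed to 7879 to 12073 and 8705 to 11637. The dividing-cell genes Mki67, Top2a, Ccnb1 and Cdk1 (4 of 4 with reads) summed to 2661 to 3132 in Klf5 LKO and 4740 to 7027 in control, without overlap. The part of the ductal, stellate and dividing-cell markers in the results below was not tested. In bulk RNA, fewer cells of a type and less RNA per cell cannot be told apart.

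The clearest differences among the 10 genes were in the last step before ceramide and in 1 ceramide synthase. Degs2 was 2.77-fold lower in Klf5 LKO, while Degs1, which codes for the other desaturase, was 1.46-fold higher and Cers4 1.62-fold higher. The first enzymes of the pathway and the glucosylceramide synthase differed little. The limma fit over 13490 genes called 0.652% of them, 0.163% as higher and 0.489% as lower in Klf5 LKO, and of the 10 genes it called 1, Degs2. DESeq2 called 3 of the 10 genes (Degs1, Degs2 and Cers4) and 2.48% of all genes. In 3 of the 10 all Klf5 LKO libraries lay above all control libraries, and in 2 all lay below. Over all tested genes these shares were 7.72% and 7.88%. Since the genes were chosen with this contrast in view, nothing is read from these counts. Their median log2 fold change was 0.09, against -0.01 over all genes tested.

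**Figure D1:**
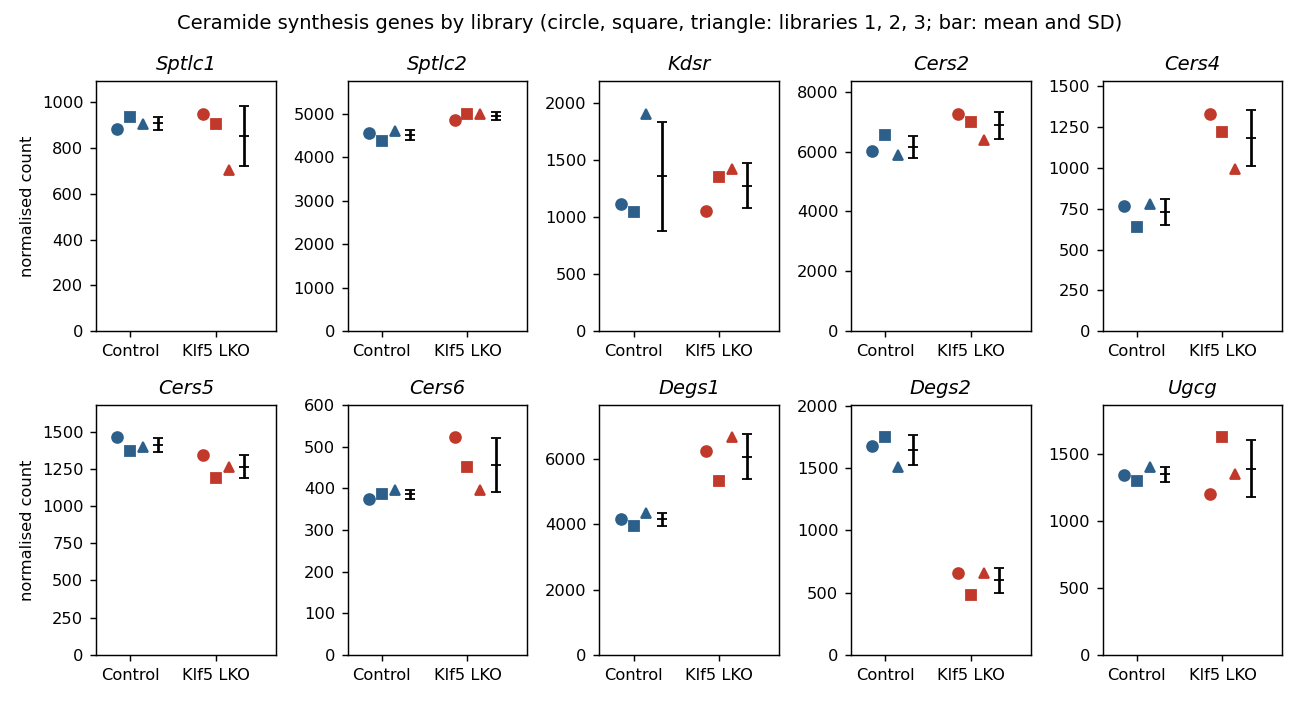
Normalised counts of the 10 ceramide synthesis genes (vertical axes from 0, 1 panel a gene) in control (blue) and Klf5 LKO (red) libraries, with the mean and SD of each group (n = 3) in black. Degs2 lies at 481 to 660 in Klf5 LKO and 1509 to 1746 in control, and Degs1 and Cers4 lie higher in all Klf5 LKO libraries than in any control library.

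Degs2 (ENSMUSG00000021263.11, chromosome 12, 108678711 to 108702315, minus strand, mm10) codes for the bifunctional desaturase and hydroxylase of dihydroceramide. Its normalised counts were 660, 481 and 655 in the Klf5 LKO libraries numbered 1 to 3, against 1679, 1746 and 1509 in the control libraries in the same order. All Klf5 LKO libraries were far below all control libraries, and Klf5 LKO 2 was the lowest. The means were 598 ± 102 and 1645 ± 122 (SD, n = 3 each), and the log2 fold change was -1.47 (SE 0.17). Leaving out each library in turn moved it between -1.55 and -1.32. In the authors' deposited table the log2 fold change of Degs2 is -1.25, a smaller size than in the fit here.

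Exons of Degs2 overlap those of Evl, a gene on the opposite strand that codes for an actin regulator, over 278 bases or 10.8% of the Degs2 exon length. No source used here states whether reads were counted by strand, and reads from that stretch could belong to either gene. Evl had 219, 251 and 244 normalised counts in Klf5 LKO, against 290, 198 and 287 in control. The Evl groups overlapped, and every Evl value was under that of Degs2 in the same library.

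Degs2 differed most between the groups. Sptlc2 had the smallest spread within Klf5 LKO, and its groups did not overlap, with means 9.73% apart. The sequence before the transcription start is shown for Degs2 and Sptlc2. Both are from RefSeq on GRCm38.p6, minus strand, 5′ to 3′, at chr12:108702316-108702556 for Degs2 (241 bases) and chr12:87388356-87388605 for Sptlc2 (250 bases), and both end just before the first annotated start of the gene. Capitals mark matches to CCNCNCCC on either strand, a form of the C-rich element that Krüppel-like factors are known to bind.

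Degs2: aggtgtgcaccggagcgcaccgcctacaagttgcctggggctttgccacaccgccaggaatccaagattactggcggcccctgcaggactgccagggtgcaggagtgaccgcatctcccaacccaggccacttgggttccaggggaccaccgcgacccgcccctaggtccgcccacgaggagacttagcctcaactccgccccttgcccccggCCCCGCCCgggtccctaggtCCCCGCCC
Sptlc2: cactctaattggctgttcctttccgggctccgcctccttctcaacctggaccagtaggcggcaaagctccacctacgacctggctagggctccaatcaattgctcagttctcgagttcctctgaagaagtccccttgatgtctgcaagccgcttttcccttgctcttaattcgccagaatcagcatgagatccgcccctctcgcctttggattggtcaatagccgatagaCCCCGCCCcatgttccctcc

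The letters CCCCGCCC stand in both stretches. They also stand in the stretches before the first annotated starts of Sptlc1 and Kdsr, and not in that of Cers6. Whether these letters bear on the difference in any of these genes was not tested. In windows of 300 bases, from 250 before to 50 after the RefSeq start, all 10 genes matched a RefSeq promoter. Over both strands, CCNCNCCC matched 2 times in the Degs2 window, 1 time in that of Degs1, 6 times in that of Cers4 and 2 times in that of Sptlc2. It matched in 67.2% of the 13086 windows of genes tested here and in 49.5% of all 32851 windows. GGGCGG, the GC box, whose matches can overlap those of CCNCNCCC (2 of those in Degs2 do), matched 5 times in Degs2, 0 times in Degs1 and 1 time in Cers4, and in 61.2% of the windows of tested genes. CACCC matched 1, 2 and 0 times in these genes and in 63.3% of the windows. The RefSeq starts of Degs1 and Cers4 lie 609 and 379 bases downstream of the first GENCODE start, so their windows lie inside the annotated gene and are not shown. These matches are descriptions of letters and not of binding.

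Degs1 (ENSMUSG00000038633.5, chromosome 1, 182275772 to 182282804, minus strand) codes for the main dihydroceramide desaturase of most cells. It had 6235, 5307 and 6655 normalised counts in Klf5 LKO, against 4146, 3954 and 4329 in control. Every Klf5 LKO library was above every control library, and Klf5 LKO 2, the lowest of its group, was also lowest for Degs2. The log2 fold change was 0.54 (SE 0.12), with means of 6066 ± 690 and 4143 ± 187.

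Degs1 and Degs2 differed in opposite directions, so their ratio separated the groups further than either gene. Degs1 had 9.45, 11.0 and 10.2 times the normalised count of Degs2 in Klf5 LKO and 2.47, 2.26 and 2.87 times in control. Per kilobase of exon, Degs2 made up 8.97% ± 0.63 of the desaturase signal in Klf5 LKO and 28.5% ± 2.42 in control (SD, n = 3 each). The 2 genes have nearly equal exon lengths, 2591 bases for Degs1 and 2583 for Degs2. With the length of the annotated principal transcript, an alternative added after the data were seen, the Degs2 shares were 13.5% and 38.7%. The summed desaturase level was 2573 ± 304 normalised counts per kilobase of exon in Klf5 LKO and 2236 ± 29.1 in control, and Klf5 LKO 2 (2234) lay within the control range of 2202 to 2255. With principal transcript lengths the sums were 3427 ± 412 and 3301 ± 24.2, and Klf5 LKO 2 (2965) lay below the control range of 3286 to 3329.

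**Figure D2:**
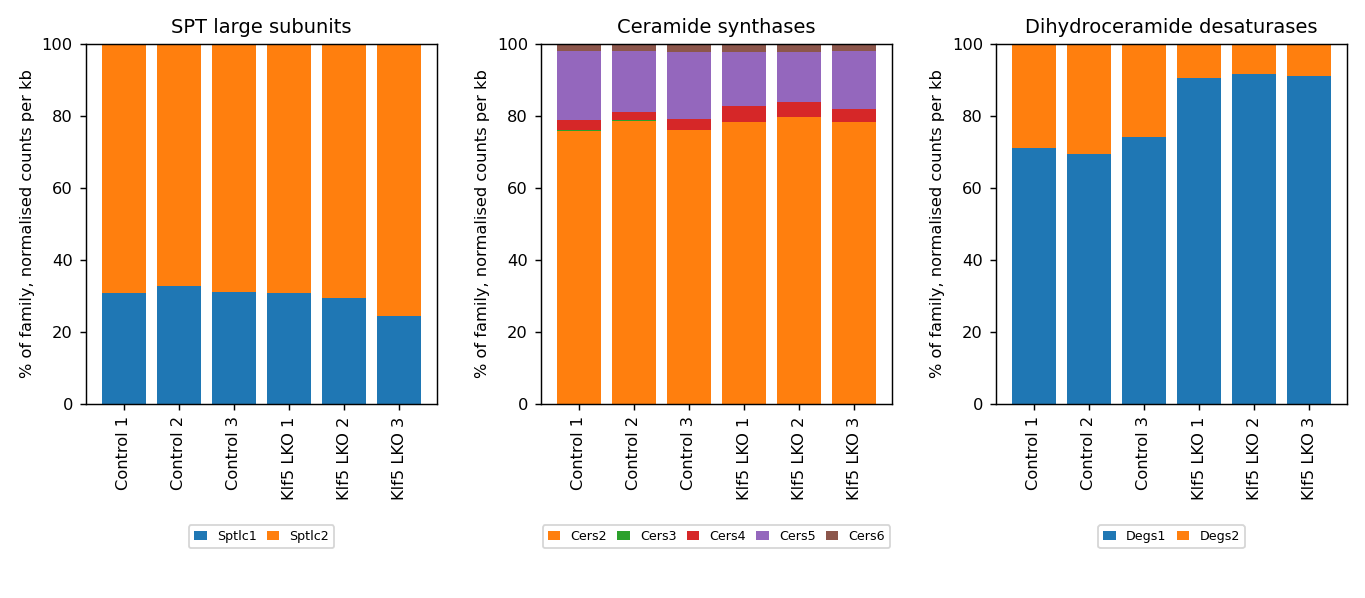
Share of each gene in its enzyme family in each library, as percent of the family's normalised counts per kilobase of exon (stacked bars, control on the left and Klf5 LKO on the right of each panel). Degs2 makes up 25.9% to 30.7% of the desaturase signal in control and 8.33% to 9.60% in Klf5 LKO, and Cers2 makes up most of the ceramide synthase signal in all 6 libraries.

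The ceramide synthases were led by Cers2 in both groups. Cers2 (ENSMUSG00000015714.11, chromosome 3, 95314791 to 95323599, plus strand), which makes very long chain ceramides, had 7266, 6990 and 6382 normalised counts in Klf5 LKO, against 6003, 6560 and 5891 in control. The groups overlapped, with Klf5 LKO 3 under control 2. The log2 fold change was 0.16 (SE 0.11). Cers2 made up 78.7% ± 0.79 of the ceramide synthase signal per kilobase of exon in Klf5 LKO and 76.8% ± 1.49 in control. It shares 144 exon bases, or 3.92%, with the antisense gene 6330562C20Rik and 75, or 2.04%, with Setdb1, both on the opposite strand. Setdb1 had means of 1068 and 1109.

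Cers4 (ENSMUSG00000008206.16, chromosome 8, 4493026 to 4531680, plus strand) codes for a synthase of long chain ceramides. It had 1332, 1219 and 996 normalised counts in Klf5 LKO, against 767, 639 and 780 in control. The groups did not overlap, and the gap between the lowest Klf5 LKO and the highest control library was wider than the SD of either group. The means were 1182 ± 171 and 729 ± 78.3, a log2 fold change of 0.69 (SE 0.17), between 0.60 and 0.81 when 1 library was left out. Per kilobase of exon, Cers4 remained a small part of the synthases, 4.04% in Klf5 LKO and 2.74% in control. Its annotated exons add up to 12264 bases, of which 886 lie across from exons of a pseudogene on the opposite strand, Vmn2r-ps89.

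Cers5 (ENSMUSG00000023021.15, chromosome 15, 99734881 to 99772885, minus strand), which makes palmitoyl ceramides, went slightly the other way. It had 1342, 1187 and 1265 normalised counts in Klf5 LKO, against 1461, 1369 and 1396 in control. No Klf5 LKO library reached the lowest control library, but the difference was small, with a log2 fold change of -0.16 (SE 0.13). Cers4 had 0.99, 1.03 and 0.79 times the normalised count of Cers5 in Klf5 LKO and 0.52, 0.47 and 0.56 times in control.

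Cers6 (ENSMUSG00000027035.10, chromosome 2, 68861441 to 69114282, plus strand), another palmitoyl ceramide synthase, had 523, 452 and 395 normalised counts in Klf5 LKO, against 375, 386 and 396 in control. Klf5 LKO 3 lay within the control range and the others above it, and the log2 fold change was 0.23 (SE 0.19). The spread was wider in Klf5 LKO, with a coefficient of variation of 14.0% against 2.73% in control. Of the synthases outside the 10 genes, Cers1, the synthase of nerve and muscle, had 0 reads in every library. There 3 reads correspond to 2.24 to 4.74 normalised counts. Overlap of Cers1 exons with those of other genes was not examined, so 0 reads does not show that Cers1 was absent. Cers3, a synthase known from skin and testis and named here after its values were seen, had 0 reads in each Klf5 LKO library and 19, 15 and 2 in control. Control 3 thus lay under the 3-read floor, and Cers3 did not pass the filter on low values.

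The first steps of the pathway were nearly level between the groups. Sptlc2 (ENSMUSG00000021036.10, chromosome 12, 87305058 to 87388355, minus strand), the catalytic subunit of serine palmitoyltransferase, had 4861, 5007 and 5008 normalised counts in Klf5 LKO, against 4559, 4383 and 4615 in control. The groups did not overlap, yet the means differed by only 9.73%, a log2 fold change of 0.13 (SE 0.11). Its coefficient of variation was 1.71% in Klf5 LKO and 2.68% in control, the smallest of the 10 genes in both groups.

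Sptlc1 (ENSMUSG00000021468.8, chromosome 13, 53332748 to 53377397, minus strand), the partner subunit, had 951, 907 and 703 normalised counts in Klf5 LKO, against 883, 937 and 905 in control. Klf5 LKO 1 lay above the control range, Klf5 LKO 2 within it and Klf5 LKO 3 below it. The log2 fold change was -0.10 (SE 0.16), and 0.03 without Klf5 LKO 3. Sptlc3, the alternative catalytic subunit, had 0 reads in every library.

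Kdsr (ENSMUSG00000009905.5, chromosome 1, 106720459 to 106759727, minus strand), the ketosphinganine reductase, varied most within a group. It had 1056, 1355 and 1426 normalised counts in Klf5 LKO, against 1121, 1046 and 1910 in control, a coefficient of variation of 35.2% in control against 15.4% in Klf5 LKO. Control 3 stood above all other libraries. The log2 fold change of -0.05 (SE 0.22) was 0.23 without control 3 and between -0.21 and 0.23 over the 6 libraries left out in turn, so it has no settled direction.

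Ugcg (ENSMUSG00000028381.8, chromosome 4, 59189257 to 59222833, plus strand) makes glucosylceramide, the first glycosphingolipid. It had 1200, 1620 and 1345 normalised counts in Klf5 LKO, against 1337, 1293 and 1403 in control. The Klf5 LKO values lay on both sides of the control range, the log2 fold change was 0.04 (SE 0.15), and it was -0.08 without Klf5 LKO 2.

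**Figure D3:**
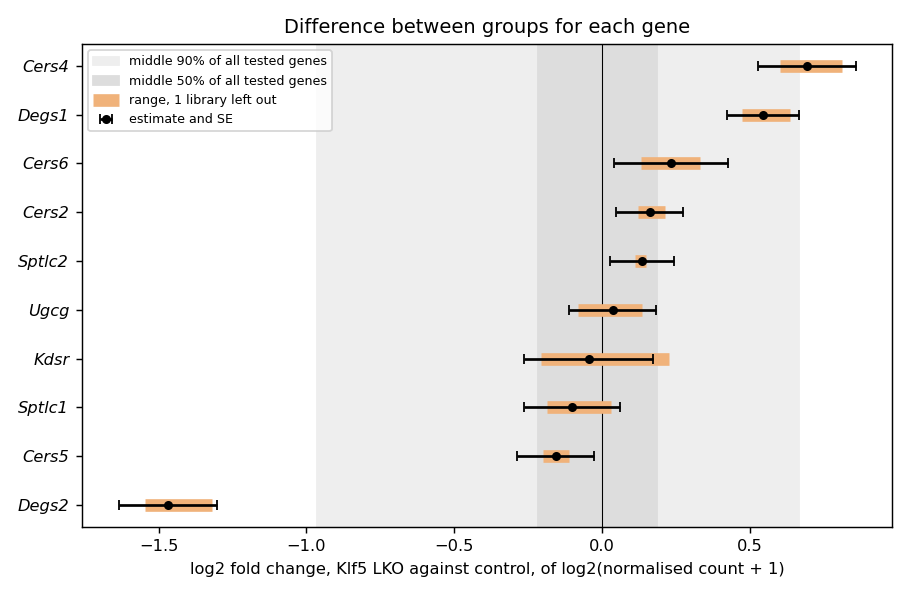
Log2 fold change of Klf5 LKO against control for each gene (points, with SE bars; horizontal axis on the log2(normalised count + 1) scale), with the range when each library was left out in turn (orange). The grey bands hold the middle 50% and 90% of all 13490 tested genes. Degs2 at -1.47 lies below the outer band, whose limits are -0.96 and 0.67, Cers4 at 0.69 lies just above it, and Sptlc1, Kdsr and Ugcg have ranges that cross 0.

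Per kilobase of exon the 10 genes ranged widely in level. In control, Cers2 (1673 ± 97.6 normalised counts per kilobase) and Degs1 (1599 ± 72.4) were highest and did not differ beyond their spread, followed by Degs2 (637 ± 47.4), Sptlc2 (557 ± 14.9) and Cers5 (398 ± 13.4). Ugcg (258 ± 10.7) and Sptlc1 (255 ± 7.69) came next without differing, then Kdsr (167 ± 58.7), Cers4 (59.4 ± 6.38) and Cers6 (43.5 ± 1.19). In Klf5 LKO, Degs1 (2341 ± 266) and Cers2 (1871 ± 123) led, and Sptlc2 (611 ± 10.4) and Cers5 (357 ± 21.8) followed. Degs2 (232 ± 39.5) was then within the spread of Ugcg (266 ± 41.0) and Sptlc1 (240 ± 37.2), so its place in the order was the third in control and the seventh in Klf5 LKO. With principal transcript lengths, these places were the third and the fifth, and Cers2 led in Klf5 LKO (3104 against 2962 for Degs1). With these lengths Cers2 also stood above Degs1 in control, at 2776 against 2023. Among 12948 tested genes with an annotated length, Degs1 and Cers2 had a mean level per kilobase above 97.3% and 96.8% of these genes, Degs2 above 82.8% and Cers4 above 40.2%.

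Degs2 had the largest difference of the 10 genes, and the 5 genes whose values over the 6 libraries were most like its own were Pglyrp1, Tspan15, Ccnb1, Ttc39b and Sdcbp2. Likeness was the root mean square difference between centred log2 values, over 10734 genes with a mean of at least 100. It was 0.17 for Pglyrp1, an antibacterial peptidoglycan-binding protein, 0.18 for the tetraspanin Tspan15, 0.20 for the mitotic cyclin Ccnb1, 0.21 for Ttc39b and 0.22 for the phosphoinositide-binding adaptor Sdcbp2, against a median of 0.78 over all genes compared. Pglyrp1 had 279, 204 and 205 normalised counts in Klf5 LKO, against 748, 629 and 552 in control. Ccnb1 had 354, 224 and 289 in Klf5 LKO, against 657, 910 and 556 in control. Sdcbp2 had 75.6, 56.6 and 69.2 in Klf5 LKO, against 223, 193 and 255 in control. As in Degs2, Klf5 LKO 2 was the lowest library for Pglyrp1, Tspan15, Ccnb1 and Sdcbp2, and Klf5 LKO 3 was the lowest for Ttc39b. These genes were picked for their likeness, so their own differences are no test.

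**Figure D4:**
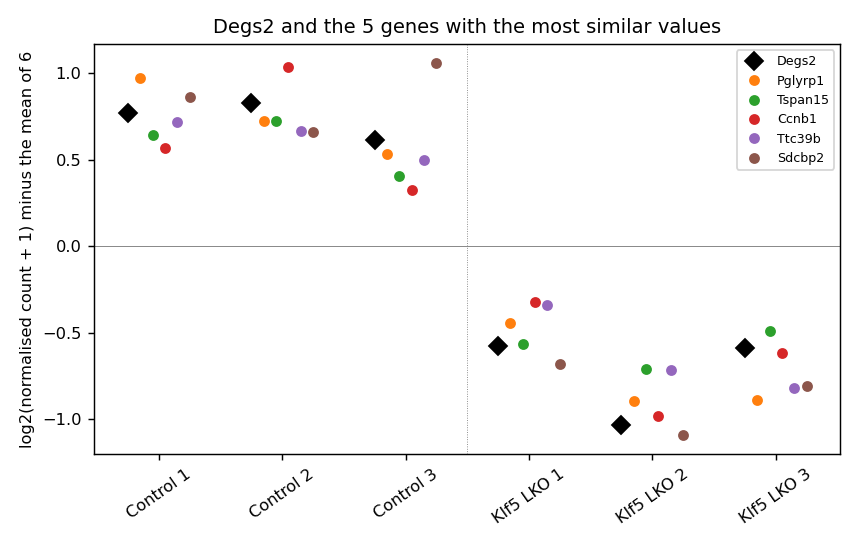
Centred log2(normalised count + 1) values of Degs2 (black diamonds) and of the 5 most similar genes (coloured circles) in each library. Each value is the difference from the gene's mean over the 6 libraries, all control values lie above 0 and all Klf5 LKO values below 0.

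Other genes of sphingolipid metabolism were read from 7 lists. Of their 86 listed genes, 75 passed the filter, and limma called 0 higher and 0 lower, against 0.652% of all tested genes. At an unadjusted p under 0.05 there were 10, against 10.9% of all tested genes. Neither edgeR nor limma-voom called any, against 0.623% and 0.549% of all genes. DESeq2 called 3, all lower in Klf5 LKO (Sptssb, Sgpp2 and Smpd3), against 1.60% of all genes called lower. Sptssb and S1pr1, counted among these 75, passed the filter only through the group where they were high, so these counts are given as a description. The median log2 fold change of the 75 genes was -0.04, and 34 had higher and 41 lower estimates. A gene that did not pass is not shown to be equal between the groups.

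**Figure D5:**
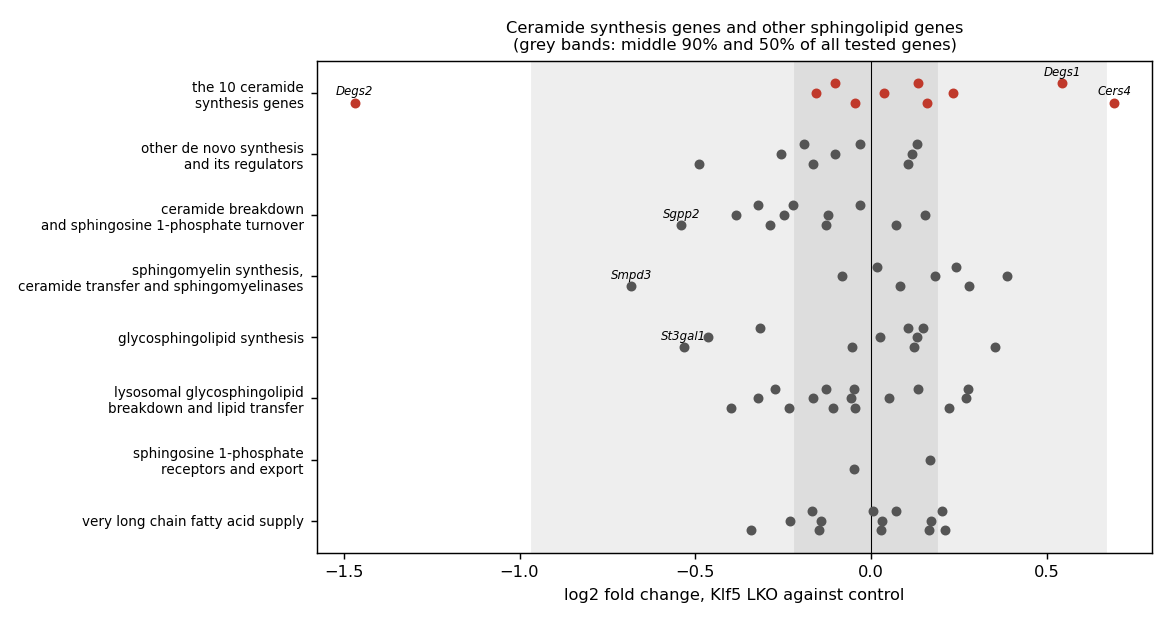
Difference between the groups, as log2 fold change with Klf5 LKO over control (horizontal axis), for the 10 ceramide synthesis genes (red) and for 68 other sphingolipid genes (dark grey) by list. The grey bands hold the middle 50% and 90% of all tested genes. The dark grey points shown lie inside the outer band, but 7 genes with both group means under 50 are not drawn, and of these Sptssb, S1pr1, B3galnt1 and Elovl2 have estimates outside it.

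Among 10 tested genes of other de novo synthesis and its regulators, 0 were called. Sptssb, a small subunit that changes the substrate choice of serine palmitoyltransferase, had 0 reads in all Klf5 LKO libraries and 21, 12 and 22 reads in control, or 20.2 ± 1.86 normalised counts. With a floor of 3 reads in each Klf5 LKO library, it was at least 7.68-fold lower there. Sptssb passed the filter only through its control level, so no adjusted p is given for it. The other small subunit, Sptssa, had 2657 ± 511 normalised counts in Klf5 LKO and 2684 ± 34.4 in control (adjusted p = 0.960). The Orm proteins, which restrain serine palmitoyltransferase, had log2 fold changes of -0.26 for Ormdl1, -0.10 for Ormdl2 and 0.13 for Ormdl3. Cyb5r3, a cytochrome b5 reductase, had means of 10657 and 12147 (adjusted p = 0.609).

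Of 11 tested genes for ceramide breakdown and sphingosine 1-phosphate turnover, 0 were called and 9 had lower estimates (median log2 fold change -0.22). Sgpp2, a phosphatase that returns sphingosine 1-phosphate to sphingosine, had 1183, 1011 and 1107 normalised counts in Klf5 LKO, against 1556, 1614 and 1622 in control. Its groups did not overlap, and the log2 fold change was -0.54 (SE 0.13, adjusted p = 0.111 with limma, 0.0166 with DESeq2). Asah1, the lysosomal ceramidase, had means of 4918 ± 549 and 5974 ± 151 (log2 fold change -0.29, adjusted p = 0.414).

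Among 8 tested genes of sphingomyelin synthesis, ceramide transfer and sphingomyelinases, 0 were called. Smpd3, the neutral sphingomyelinase that releases ceramide from sphingomyelin at membranes, had 2017, 1783 and 1287 normalised counts in Klf5 LKO, against 3173, 3107 and 1939 in control. Control 3 lay under Klf5 LKO 1, so the groups overlapped. The log2 fold change was -0.68 (SE 0.21, adjusted p = 0.228 with limma and 0.0342 with DESeq2). Sgms1, a sphingomyelin synthase of the Golgi, had means of 1178 ± 78.9 and 908 ± 156, with a log2 fold change of 0.39 (adjusted p = 0.414).

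In the remaining lists 0 genes were called. Of 12 tested glycosphingolipid synthesis genes, the lactosylceramide synthase B4galt5 had means of 1076 ± 133 in Klf5 LKO and 841 ± 89.4 in control (adjusted p = 0.445), and the sialyltransferase St3gal1 305 ± 123 and 423 ± 51.3 (adjusted p = 0.523). Of 15 genes for lysosomal breakdown and lipid transfer, the glycolipid transfer protein Gltp had 1556 ± 183 and 1934 ± 19.5 (adjusted p = 0.410), and the ceramide 1-phosphate transfer protein Cptp 604 ± 101 and 791 ± 55.2 (adjusted p = 0.435). Of 5 sphingosine 1-phosphate receptor and export genes, the receptor S1pr1 had 41.1, 20.9 and 52.2 normalised counts in Klf5 LKO, against 0, 0 and 27.4 in control. It passed the filter only through its Klf5 LKO level, so no test is given. The exporter Spns2 had 4636 ± 384 and 4124 ± 297 (adjusted p = 0.666). Of 14 genes for fatty acid supply, the elongase Elovl7 had 2740 ± 232 and 2382 ± 232 (adjusted p = 0.623), and the acyl-CoA synthetase Acsl3 1275 ± 437 and 1548 ± 104 (adjusted p = 0.633).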

How the data were processed

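RNA-seq libraries of biliary epithelial cells, 3 Klf5 LKO and 3 control, were grouped and numbered by their titles, and none was left out. Per the labels' protocols, each used 4 ng of input RNA, 10 cycles of pre-amplification and 7 of enrichment, so reads are not independent molecules and count floors cover counting error only. Per the submitters' processing notes, TopHat, Bowtie2 and DESeq2 were used with mm10. Counter, annotation, strand and filters: not given in the sources used here.

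The authors deposited a signal per gene and library, a read count divided by a size factor. All values (100%) were whole multiples of 1 read within a tolerance of 0.001. The authors also deposited log2 fold changes.

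Limma 3.58.1 (R 4.3.3, trend, two-sided, Benjamini-Hochberg, threshold 0.05) was run on log2(value + 1) for 13490 genes with a mean of at least 10, and tested on simulated data. DESeq2 1.42.0, edgeR 4.0.16 and limma-voom on the recovered reads were alternatives. Gene positions and exon lengths are from GENCODE M21 (GRCm38), which matched 23309 of 24404 symbols.

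Members, lists and tests were chosen with earlier results of these data known. Named were the 10 genes, Klf5, called genes of the 7 lists or else the 2 with the smallest p, and the 5 genes most like the gene with the largest difference. Other genes (Cers1, Cers3, Sptlc3, Sptssa, Ormdl1 to Ormdl3, Acer1, B3galnt1, Elovl2, and Evl, Setdb1, 6330562C20Rik and Vmn2r-ps89 for their overlap) fall outside this rule and were chosen after the values were seen. Cd74, Ptprc, Dcn and the ductal markers other than Epcam and Krt19 were also named after the values were seen.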

Additional observations from a re-analysis of the deposited data

How the results depend on the processing

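The number of genes called depended on the tool and the libraries. It was 88 (22 higher and 66 lower in Klf5 LKO), 335 with DESeq2 (119 higher, 216 lower), and 14 to 105 when 1 library was left out (1 to 22 higher, 13 to 83 lower), with 14 without control 2, 24 without control 1, 49 without Klf5 LKO 3 and 53 without control 3. Without a filter on low values 13 were higher. Among the wider sphingolipid genes 0 were called, against 3 with DESeq2, 1 without a filter (Sptssb) and 1 with the replicate block (Smpd3), which called 110 genes in all. Sptssb had 0 reads in every Klf5 LKO library, so its calls with DESeq2 and without a filter are a description only. Whether libraries with the same number in their titles are paired is not known, and the main fit did not pair them. Their deviations from the group means correlated at 0.185, -0.012 and 0.106, and not every library matched its own number best. With 3 libraries a group, such correlations cannot settle the question. Over the 16 alternatives, which include TMM and upper quartile scaling, pseudocounts of 0.5 and 5 and a mean of at least 50, the log2 fold changes lay between -1.55 and -1.32 for Degs2, 0.47 and 0.64 for Degs1, and 0.60 and 0.81 for Cers4. The estimate changed sign in 1 alternative for Sptlc1, 2 for Kdsr and 1 for Ugcg, and in none for the other 7 genes. With 3 libraries a group, small differences could not be resolved.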

Other observations

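Acer1, the alkaline ceramidase known from skin and chosen after its values were seen, did not pass the filter. It had 8, 8 and 7 reads in Klf5 LKO and 1, 3 and 2 in control, or 6.66 ± 0.75 and 2.56 ± 1.97 normalised counts (SD, n = 3 each), and the groups did not overlap. The difference was not tested.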
